A study of Mus musculus with 6 samples.

Results

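The 35 genes described here encode the machinery that starts and builds the autophagosome, from the ULK kinase complex to the enzymes that conjugate ATG proteins, with a few genes of autophagosome closure and fusion. They were chosen by gene symbol, from what their proteins are known to do, and with earlier results of these data known. All 35 were listed among the 21878 rows of the deposited tables. RNA-seq had been performed on sorted HSCs (BM cells gated as Lineage- Sca-1+ c-Kit+ Flt3- CD34-), with 3 libraries of control and 3 libraries of IGF1-treated mice. All mice were WT, of the C57BL/6 strain by the study's methods. The IGF1 group received a single subcutaneous dose of recombinant mouse IGF1 and was taken at day 1, and the control group received vehicle. The age of the mice was not given in the sources used here. The labels conflict on the treatment, since their text on extraction speaks of irradiated mice whereas the label for treatment, the text on design and the study's methods name IGF1, and the libraries were taken as IGF1 and control. Nothing in the labels says whether the libraries of a group came from separate mice or from pools, so p-values measure only the spread between these libraries, which may be technical.

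Autophagy encloses cytoplasm in a double membrane and delivers it to the lysosome, and HSCs are known to depend on it for their maintenance. mTORC1, a kinase that acts downstream of IGF1 receptor signalling, phosphorylates proteins of the ULK complex and holds autophagosome formation back when nutrients and growth factors are plentiful. The ULK complex activates the class III PI3K complex, whose lipid product PI3P recruits WIPI proteins and the ATG2 lipid transfer proteins, and the conjugation enzymes then attach LC3 to the growing membrane.

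Values are FPKM, a unit scaled to the depth of the library and to the length of the gene, so levels can be compared between genes. Of the 35 genes, 34 reached 1 FPKM in 3 or more libraries and were tested, with 10447 genes in all, by limma on log2(FPKM + 1). Fold changes below are on that scale, which understates the change of low genes. Calls follow the thresholds of the study's methods, more than 2-fold with a Benjamini-Hochberg adjusted p (over all genes tested) under 0.05.

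The libraries were not alike within the control group. Whole reads could be recovered from the steps in which FPKM values rise, which put the libraries of control replicates 1, 2 and 3 at about 16000000, 11500000 and 16100000 reads and those of IGF1 at 12400000, 11300000 and 12900000. Control replicates 1 and 3 differed from each other by a mean chi-squared per gene of 1.51, where sampling of reads alone gives about 1, and the IGF1 libraries by 1.69 to 1.88. Control replicate 2 differed from the other controls by 228 and 230 and from the IGF1 libraries by 24.3 to 27.6. Whether this library is a control as labelled could not be checked from the labels, so values with and without it differ in meaning if it is not. Counts of calls, and the fold changes of tested members whose values are given in every library, are therefore also given without control replicate 2. The markers of the sort did not all match its gates. Cd34 was at 230 to 640 FPKM and Flt3 at 117 to 188 FPKM in the 6 libraries, although both were gated out, and all 12 genes of an HSC marker list were listed above 0, with 10 tested and 0 called by limma (1 at an adjusted p under 0.05, Fgd5). Kit, a gate of the sort, was at 105, 31.4 and 104 FPKM in control and 24.2 to 24.6 FPKM in IGF1, and without control replicate 2 it was called lower (-2.06), as were the HSC markers Mecom and Ctnnal1. Summed over their lists, megakaryocyte and platelet markers were at 60.2 to 81.4 FPKM in control and 106 to 116 FPKM in IGF1 libraries (2 of 6 tested called higher), neutrophil and monocyte markers at 2278 to 2452 and 2454 to 2462 (4 of 8 called lower) and B cell markers at 121 to 498 and 474 to 493 (0 of 7 called), with control replicate 2 at the upper end of the control range in all 3 lists. Without that library these lists had 4 genes called higher, 4 lower and 1 higher, and 5 higher. The neutrophil and monocyte sum was mostly Mpo (1613 to 1705 FPKM in all libraries), while S100a8 was at 284, 163 and 285 FPKM in control and 55.0 to 72.8 FPKM in IGF1, and Elane at 92.8, 576 and 92.4 FPKM in control and 692 to 709 FPKM in IGF1. Ly6g, which defines neutrophils, was at 0 in the IGF1 libraries and at most 0.200 FPKM in control. The part of other cells in the results below was not tested, and in sorted bulk samples fewer cells of a type and less RNA per cell cannot be told apart.

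Most of the 34 genes tested had lower mean values in HSCs after IGF1 than after vehicle, and 2 of them were called. The log2 fold change was below 0 in 23 and above 0 in 11 genes, with a median of -0.36 beside -0.18 over all genes tested, of which 59.6% were below 0. Becn1 was called lower, where 4.63% of all genes tested were (484 genes), and Tecpr1 was called higher, where 1.98% were (207 genes). By the adjusted p alone, 7 members were lower, namely Becn1, Wdr45b, Vmp1, Atg3, Atg5, Atg12 and Snap29, against 14.1% of all genes. The adjusted p alone gave 4 higher members, Atg2a, Atg16l2, Tecpr1 and Epg5, against 6.26% of all genes. The groups did not overlap in 15 members that were lower in IGF1 and in 6 that were higher, beside 37.4% and 21.9% of all genes tested. The exact permutation test of each of these 21 genes gave p = 0.1, the smallest value that 3 libraries against 3 allow. Without control replicate 2, 6 members were called lower (Becn1, Pik3c3, Nrbf2, Wdr45b, Atg7 and Atg12), beside 20.6% of all genes, and Tecpr1 alone was called higher, beside 12.3%. By the adjusted p alone 21 members were then lower, beside 53.6% of all genes, and 8 higher, beside 34.9%. With any other single library left out, limma called 0 genes, so that Becn1 and Tecpr1 were no longer called. Becn1 was still at -1.16 to -1.38 in these fits (limma adjusted p from 0.154 to 0.164). At an unadjusted p under 0.05 these fits put 450 to 795 genes past the fold threshold as lower and 232 to 386 as higher. The shares of members were near or under those of all genes by most of these rules, and above them in both directions by the adjusted p alone over all 6 libraries.

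**Figure D1:**
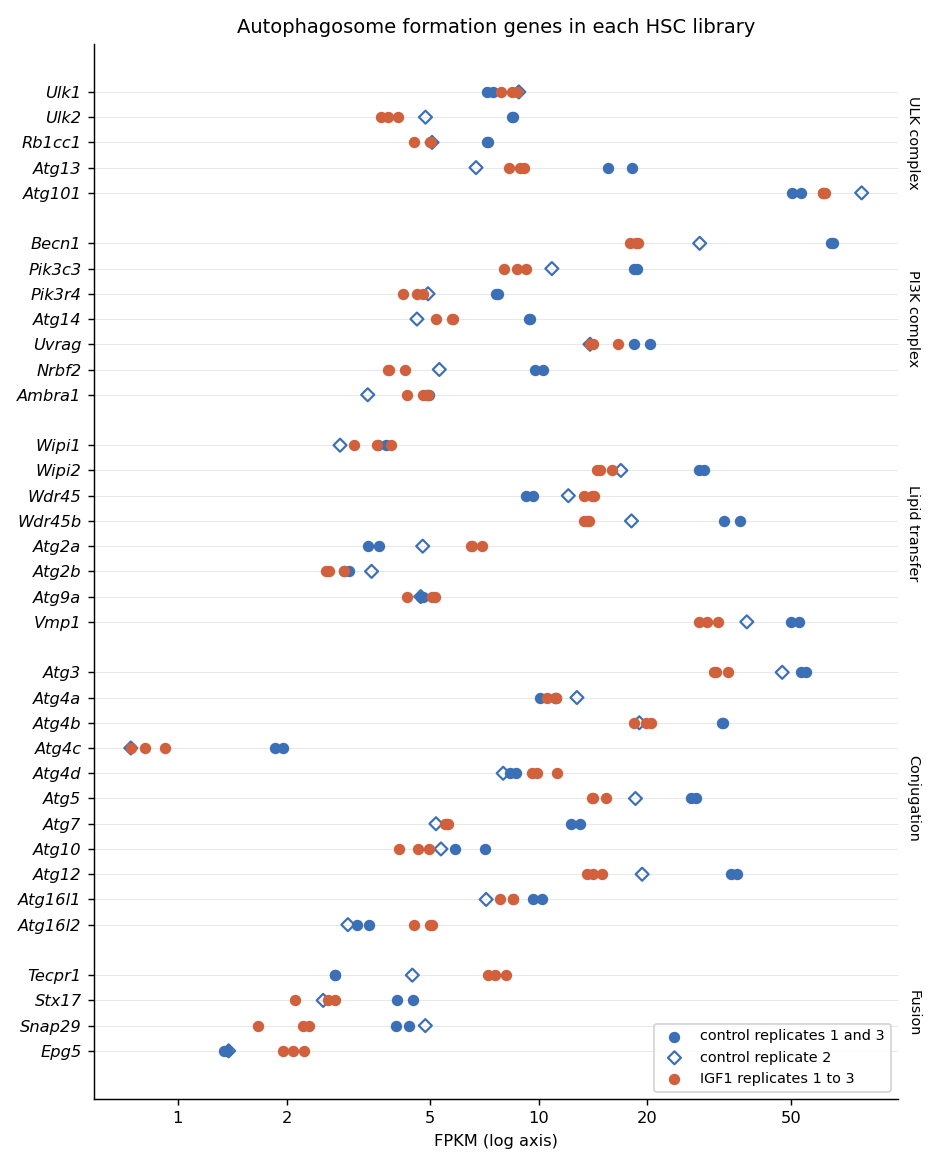
FPKM (log axis) of each of the 35 genes in each of the 6 libraries, by step; filled blue circles are control replicates 1 and 3, open diamonds control replicate 2 and orange circles the IGF1 libraries. In Becn1 control replicate 2 lies at 27.9 FPKM between the other controls (64.4 and 65.2) and IGF1 (17.9 to 18.9), while in Snap29 it lies with the other controls.

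Levels differed more between the genes than between the groups. Mean FPKM over the 6 libraries ran from 1.17 in Atg4c to 61.1 in Atg101, with a median of 7.86 beside 10.8 over all genes tested, and 14 of the 35 genes were above 10 FPKM. The reads behind a member in a library numbered 59 to 2825.

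**Figure D2:**
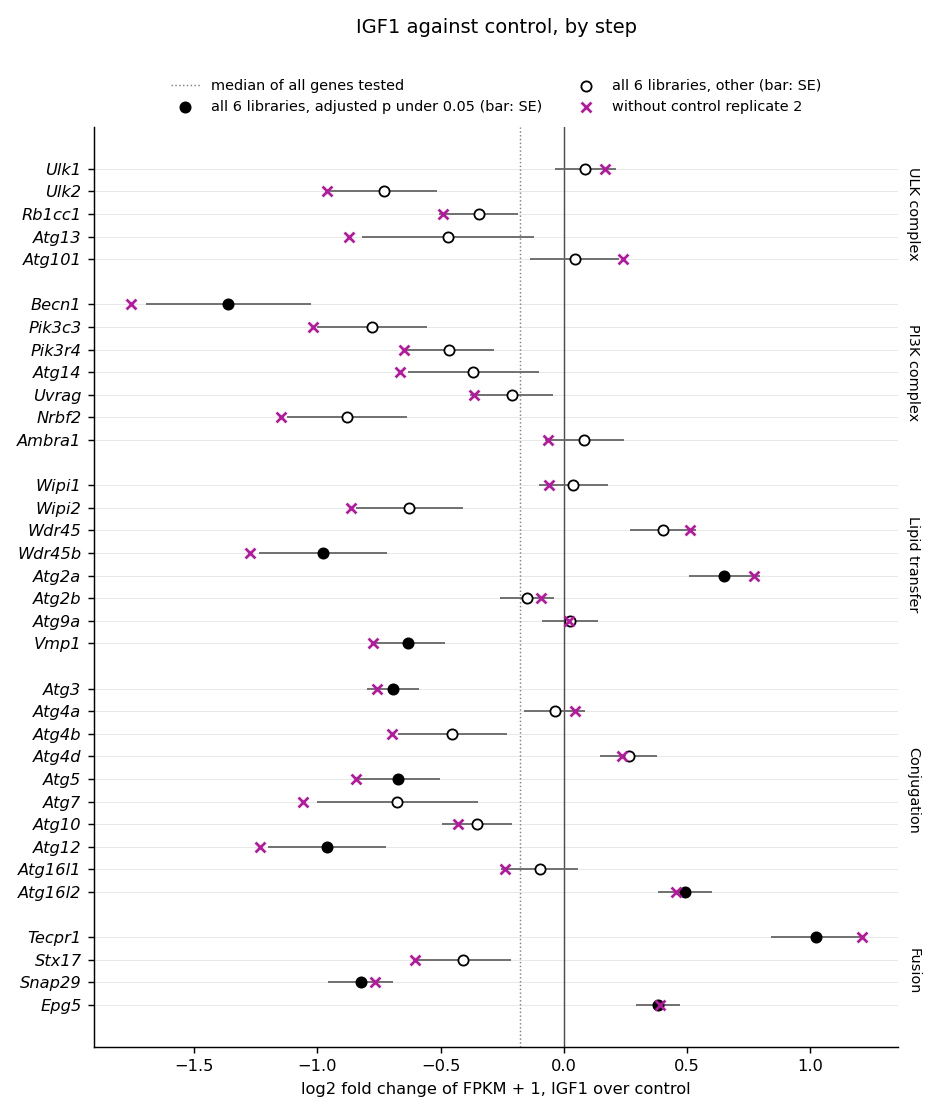
Log2 fold change of FPKM + 1 (IGF1 over control) of the 34 genes tested, by step; circles are the fit of all 6 libraries with their SE, filled at an adjusted p under 0.05, crosses the fit without control replicate 2, and the dotted line the median of all genes tested. Becn1 lies lowest at -1.36 and Tecpr1 highest at 1.02, and without control replicate 2 they lie at -1.76 and 1.21.

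The sequence before the genes was read for 28 of the 35 members, those found by symbol in the RefSeq promoter table (GRCm38.p6, 250 bases before to 50 bases after the annotated start). CACGTG, the E-box core bound by TFEB and its relatives, which are known to drive autophagy genes, was found on either strand in 5 members, beside 8.09% of all gene symbols in the table. These windows are printed because all 5 genes, which belong to the PI3K complex and the conjugation enzymes, had a log2 fold change below 0 (median -0.68), with Atg3 and Atg5 past the adjusted p. They were thus picked by outcome, and 23 of the 34 members tested were below 0. With the trends on length and GC content described below removed, Atg14 was at 0.061, Nrbf2 at -0.63, Atg3 at -0.12, Atg5 at -0.13 and Atg7 at -0.39. Tfeb itself was at 5.90, 4.96 and 6.06 FPKM in control and 8.01, 7.10 and 7.79 FPKM in IGF1 (0.38, limma adjusted p = 0.0631, or 0.018 with the trends removed). The activity of TFEB was not tested. Each window runs 5′ to 3′ on the gene's strand, with the 6 bases of CACGTG in capitals.
Atg14, chr14:47568418-47568447, minus strand: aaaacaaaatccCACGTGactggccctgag
Nrbf2, chr10:67285472-67285501, minus strand: gacccggctcatCACGTGacagccgccgcc
Atg3, chr16:45158723-45158752, plus strand: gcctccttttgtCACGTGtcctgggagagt
Atg3, chr16:45158746-45158775, plus strand: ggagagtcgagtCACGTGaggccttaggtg
Atg5, chr10:44268313-44268342, plus strand: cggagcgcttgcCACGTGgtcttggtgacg
Atg7, chr6:114670952-114670981, plus strand: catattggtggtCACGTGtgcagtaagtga
The Nrbf2 window and the second Atg3 window hold the longer TCACGTGA, found in 2 members and in 1.12% of all symbols. Counted from the annotated start, whose first base is 1, the first base of CACGTG lay at -208 in Nrbf2, -94 and -71 in Atg3, -14 in Atg5, -132 in Atg7 and -1 in Atg14. The forkhead motif GTAAACA was found in 0 of the 28 members and in 4.05% of all symbols, which says only that these letters are not in the windows read. CCAAT was found in 9 members (4 below 0 and 5 above 0) and GGGCGG, the GC box, in 17 (12 below 0 and 5 above 0), beside 41.1% and 38.2% of all symbols. Atg16l1, Becn1, Atg12, Wdr45b, Rb1cc1, Epg5 and Pik3c3 were not read.

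In the ULK complex, which receives the signal of mTORC1, no gene was called, and Ulk2 differed most. Ulk2, the paralog of the kinase Ulk1, was at 8.49, 4.85 and 8.40 FPKM in control replicates 1, 2 and 3 and at 4.07, 3.82 and 3.66 FPKM in IGF1 replicates 1, 2 and 3. All IGF1 libraries were below all controls, with control replicate 2 closer to IGF1 than to the other controls. Its log2 fold change of -0.73 (SE 0.22) had an adjusted p of 0.0547, and without control replicate 2 it was -0.96. Atg101, which stabilises ATG13 within the complex, was the most abundant member of all steps, at 53.3, 78.4 and 50.4 FPKM in control and 61.1, 62.0 and 61.1 FPKM in IGF1. The groups overlapped, because control replicate 2 was the highest library, and the log2 fold change was 0.044 (adjusted p = 0.844), or 0.24 without that library (adjusted p = 0.000157). The other members of the complex are the kinase Ulk1, its scaffold Rb1cc1 (FIP200) and the adaptor Atg13, with log2 fold changes of 0.087, -0.35 and -0.47 and adjusted p-values of 0.12 to 0.568. The median of the 5 genes was -0.35, and their summed level was 94.5, 104 and 88.8 FPKM in control and 87.2, 86.9 and 87.3 FPKM in IGF1.

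The PI3K complex, which makes PI3P on the forming membrane, held the largest difference among the members. Becn1 encodes Beclin 1, the scaffold on which this complex assembles, and lies on chromosome 11 (GRCm38, 101285952 to 101302286, minus strand). It was at 64.4, 27.9 and 65.2 FPKM in control and at 18.6, 17.9 and 18.9 FPKM in IGF1. The groups did not overlap, and control replicate 2 lay about 67.5% of the way, in log2 units, from the other controls to the IGF1 libraries. Becn1 fell by 1.36 on the log2 scale (SE 0.33, adjusted p = 0.0455), and by 1.76 without control replicate 2. Exons of Cntd1 on the other strand overlap 43.9% of its exonic bases, and Cntd1 was at 0.622 to 1.67 FPKM in control and 0.362 to 0.592 FPKM in IGF1. The kit keeps strand, but the sources used here do not say whether the counting did, so reads of the overlap could count for either gene.

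The kinase subunit and an accessory subunit of the PI3K complex also had groups that did not overlap. Pik3c3, the catalytic subunit known as VPS34, was at 18.7, 10.9 and 18.4 FPKM in control and at 9.23, 8.71 and 8.03 FPKM in IGF1. Its log2 fold change was -0.78 (SE 0.22, adjusted p = 0.0527). Nrbf2, a subunit that binds ATG14, was at 10.3, 5.30 and 9.75 FPKM in control and 3.85, 4.26 and 3.81 FPKM in IGF1, with a log2 fold change of -0.88 (SE 0.24, adjusted p = 0.0515). Both missed the fold threshold and, by little, that of the adjusted p, and both were called without control replicate 2, at -1.02 and -1.15. Ambra1, which binds Beclin 1 and the ULK complex, was the least abundant gene of this step at 4.95, 3.36 and 4.90 FPKM in control and 4.31, 4.93 and 4.78 FPKM in IGF1. Control replicate 2 was its lowest library and the groups overlapped (log2 fold change 0.084, adjusted p = 0.671, and -0.064 without that library). The remaining 3 members, the regulatory subunit Pik3r4 and the alternative partners Atg14 and Uvrag, had log2 fold changes of -0.21 to -0.47, with adjusted p-values from 0.0862 to 0.314. The summed level of the 7 genes was 136, 70.8 and 134 FPKM in control and 60.1, 59.6 and 62.3 FPKM in IGF1, and the median log2 fold change was -0.47, or -0.67 without control replicate 2.

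The genes of PI3P binding and lipid transfer moved in both directions, with 4 of 8 below 0 and 4 above 0 and a median of -0.063. Wdr45b encodes WIPI3, a PI3P-binding propeller protein, and was at 32.5, 18.1 and 36.0 FPKM in control and 13.4, 13.8 and 13.6 FPKM in IGF1. It fell by 0.98 on the log2 scale (SE 0.26, adjusted p = 0.0486), just under the fold threshold, and was called without control replicate 2 at -1.27. Vmp1, an ER membrane protein needed for phagophore growth, was at 52.6, 37.7 and 49.8 FPKM in control and 29.3, 31.5 and 27.8 FPKM in IGF1. It fell by 0.63 on the log2 scale (adjusted p = 0.0439), or by 0.78 without control replicate 2, with every control above every IGF1 library. Atg2a, a bridge-like lipid transfer protein, went the other way, at 3.61, 4.77 and 3.36 FPKM in control and 6.54, 6.97 and 6.47 FPKM in IGF1, a rise of 0.65 on the log2 scale (SE 0.14, adjusted p = 0.0412), or 0.77 without control replicate 2. Control replicate 2 stood about midway between the other controls and IGF1 in Atg2a and Vmp1. Wipi2, which recruits ATG16L1 to PI3P, was at 27.8, 16.9 and 28.7 FPKM in control and 14.5, 16.0 and 14.8 FPKM in IGF1, and its log2 fold change of -0.63 had an adjusted p of 0.0688 (-0.86 without control replicate 2). Atg2b, the paralog of Atg2a and the least abundant gene of this step, was at 2.97, 3.44 and 2.88 FPKM in control and 2.62, 2.88 and 2.57 FPKM in IGF1. Its groups only just did not overlap (log2 fold change -0.15, adjusted p = 0.277, and -0.092 without control replicate 2). The other members were the PI3P-binding Wipi1 and Wdr45 (WIPI4) and the lipid scramblase Atg9a, with log2 fold changes of 0.039, 0.40 and 0.024 and adjusted p-values of 0.0636 to 0.863. Other annotated genes on the same strand share 24.7% of the exonic bases of Wdr45 and 31.8% of those of Atg9a.

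The conjugation enzymes were mostly lower, with 8 of the 10 genes tested below 0, a median of -0.40 and no call. Atg3, the enzyme that passes LC3 to its lipid, was at 54.8, 47.2 and 53.4 FPKM in control and at 30.5, 31.0 and 33.4 FPKM in IGF1. Control replicate 2 lay nearer to the other controls, about 25.4% of the way, in log2 units, from them to the IGF1 libraries. Atg3 had the smallest adjusted p of the members, with a fall of 0.69 on the log2 scale (SE 0.10, adjusted p = 0.0287), or of 0.76 without control replicate 2. Atg12 encodes the ubiquitin-like protein that is joined to ATG5, and was at 34.1, 19.3 and 35.4 FPKM in control and 14.1, 15.0 and 13.6 FPKM in IGF1. It fell by 0.96 on the log2 scale (SE 0.24, adjusted p = 0.0459). Atg5, its acceptor, was at 27.2, 18.5 and 26.4 FPKM in control and 15.4, 14.0 and 14.2 FPKM in IGF1, a fall of 0.67 on the log2 scale (SE 0.17, adjusted p = 0.0459). In both genes all controls were above all IGF1 libraries, with control replicate 2 nearer to IGF1, and without it the values were -1.23 for Atg12, which was then called, and -0.84 for Atg5.

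The protease Atg4c, which trims LC3 proteins, did not pass the filter and was not tested. It was at 1.96, 0.741 and 1.86 FPKM in control and 0.740, 0.921 and 0.809 FPKM in IGF1, so the groups overlapped through control replicate 2. The proteases Atg4a, Atg4b and Atg4d had log2 fold changes of -0.037, -0.45 and 0.26, and none passed the test (adjusted p from 0.107 to 0.808). Atg4d was at 0.46 to 0.56 under the 3 scalings described below, and its adjusted p was under 0.05 in 6 of 19 alternatives. The reads of Atg4a may be shared with the pseudogene Atg4a-ps, and 19.3% of the exonic bases of Atg4d overlap Kri1 on the other strand. Atg7, which activates both ubiquitin-like proteins, had overlapping groups because control replicate 2 was below the IGF1 libraries. Its log2 fold change of -0.68 (SE 0.33, adjusted p = 0.133) became -1.06, a call, without that library. Atg10, which hands ATG12 to ATG5, was at -0.35 (adjusted p = 0.0921). Of the scaffold paralogs, Atg16l1 did not pass the test (-0.098, adjusted p = 0.607), while Atg16l2 rose by 0.49 on the log2 scale (SE 0.11, adjusted p = 0.0417), with control replicate 2 among the other controls. The summed level of the 11 conjugation genes was 202, 146 and 201 FPKM in control and 124, 126 and 125 FPKM in IGF1.

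The 4 genes of closure and fusion split evenly, and 3 of them passed the adjusted p. Tecpr1, which binds the ATG12-ATG5 conjugate on the way to the lysosome, lies on chromosome 5 (GRCm38, 144194442 to 144223615, minus strand). It was at 2.73, 4.46 and 2.72 FPKM in control and 8.09, 7.21 and 7.55 FPKM in IGF1. Every IGF1 library was above every control, and Tecpr1 rose by 1.02 on the log2 scale (SE 0.18, adjusted p = 0.0354), or 1.21 without control replicate 2. Snap29, a SNARE that pairs with syntaxin 17 on the closed autophagosome, was at 4.36, 4.85 and 4.03 FPKM in control and 2.30, 1.67 and 2.21 FPKM in IGF1. It fell by 0.83 on the log2 scale (SE 0.13, adjusted p = 0.0307), and control replicate 2 was the highest of the controls. With the trends on length and GC content described below removed and control replicate 2 left out, its value was 0.067. Epg5, a tether between autophagosome and lysosome, was at 1.34, 1.38 and 1.37 FPKM in control and 2.08, 2.23 and 1.95 FPKM in IGF1, a rise of 0.38 on the log2 scale (SE 0.089, adjusted p = 0.0429). The 3 controls of Epg5 were nearly equal. Stx17, the syntaxin itself, had overlapping groups and a log2 fold change of -0.41 (adjusted p = 0.13). The summed level of these genes was 12.9, 13.2 and 12.2 FPKM in control and 14.6, 13.7 and 14.4 FPKM in IGF1.

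The place of control replicate 2 between the groups varied among the members. It was measured on the log2 scale as the distance from the mean of the other 2 controls, where 0% is their mean and 100% the mean of IGF1, in the genes that differed by over 0.25 without it. Among 25 such members it was under 25% in 3 (Atg16l2, Snap29 and Epg5), between 25% and 75% in 13 and over 75% in 9, with a median of 69.7%. Over the 8526 such genes of all those tested, the median was 80.7%, with 8.41% of genes under 25% and 58.2% over 75%. In Snap29, Epg5 and Atg16l2, then, leaving out control replicate 2 moved the log2 fold change little, from -0.83 to -0.77, from 0.38 to 0.39 and from 0.49 to 0.46.

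The direction of the fold changes followed the GC content of the transcripts. GC content of the longest reference transcript ran from 39.1% in Rb1cc1 to 60.0% in Atg2a, with a median of 49.95% beside 49.7% over all genes tested. All genes tested were divided into 4 GC classes of 2588 genes. All 9 members in the lowest class (up to 44.8% GC) and all 7 in the next (up to 49.7%) had log2 fold changes below 0. Of all genes of these 2 classes, 77.7% and 68.4% were below 0, with medians of -0.51 and -0.34. In the class from there to 54.5% GC, 7 members were below 0 and 4 above 0. All 7 members of the highest class were above 0, where 37.5% of all genes were below 0 and the median was 0.19. Across the 34 genes the fold change and GC content had a Pearson r of 0.61 and a Spearman rho of 0.59, beside 0.38 and 0.38 across all genes, given as a description over genes that share the same 6 libraries. With the transcript closest in length to that implied by the FPKM steps in place of the longest, rho was 0.60 across the members, and the numbers below 0 were 9 of 9, 6 of 7, 8 of 12 and 0 of 6 from the lowest to the highest class.

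**Figure D3:**
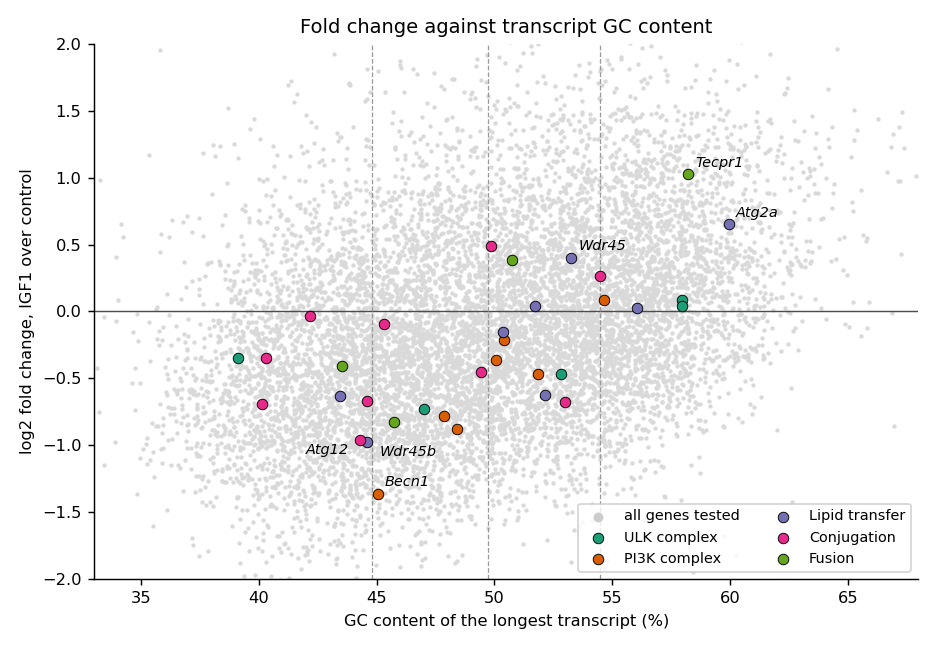
Log2 fold change (IGF1 over control) against GC content of the longest transcript; grey points are all genes tested within the axes, coloured points the 34 members by step, and dashed lines the bounds of the 4 GC classes. The 16 members left of the middle line lie below 0 and the 7 right of the last line above 0.

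The libraries themselves differed in this respect. Per 10 points of GC content, log2 FPKM moved by -0.27, -0.027 and -0.27 relative to the mean of the 6 libraries in control replicates 1, 2 and 3, and by 0.20, 0.18 and 0.19 in IGF1 replicates 1, 2 and 3, over 10352 genes. Per doubling of transcript length it moved by 0.15, -0.077 and 0.15 in control and by -0.072, -0.072 and -0.077 in IGF1. Control replicate 2 thus had the length trend of the IGF1 libraries and a GC trend between the groups. In the other 5 libraries the trends go together with treatment and cannot be told apart from it.

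When each library's trends on length and GC content were removed, the median of the members was near 0, and 4 of the 11 members that had passed the adjusted p still passed it. The median of the 34 genes became 0.0037, with 16 below 0 and 18 above 0, and none differed by over 2-fold. By the adjusted p alone limma gave 3 lower members (8.38% of all genes with GC content were lower) and 3 higher members (7.65% of all genes). The lower ones were Becn1 at -0.80 (adjusted p = 0.0427), Atg12 at -0.43 (adjusted p = 0.0477) and Atg101 at -0.46 (adjusted p = 0.0298), whose value without this step was 0.044. The higher ones were Tecpr1 at 0.85 (adjusted p = 0.0371), Atg16l2 at 0.63 (adjusted p = 0.0294) and Atg16l1 at 0.52 (adjusted p = 0.0385), whose value without this step was -0.098. Tecpr1 and Atg16l2 thus stayed within 1.5 times of their values without this step, while Becn1 and Atg12 had been at -1.36 and -0.96. The other 7 members that had passed the adjusted p did not pass it here. Among those that had been lower, Vmp1, Atg3, Atg5, Snap29 and Wdr45b moved to 0.015, -0.12, -0.13, -0.20 and -0.42. Among those that had been higher, Atg2a moved from 0.65 to 0.14 (adjusted p = 0.253) and Epg5 from 0.38 to 0.36 (adjusted p = 0.0503). The median was -0.17 in the ULK complex, -0.23 in the PI3K complex, 0.075 in lipid transfer, 0.019 in conjugation and 0.19 in fusion. The removal used the longest transcript of each gene, which is not always the one closest in length to that implied by the FPKM steps. GC content of the longest and of the closest transcript was 45.3% and 51.9% in Atg16l1, and 45.0% and 49.1% in Becn1. Removal with the closest transcript was not run, so the values of such genes after removal may depend on this choice.

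**Figure D4:**
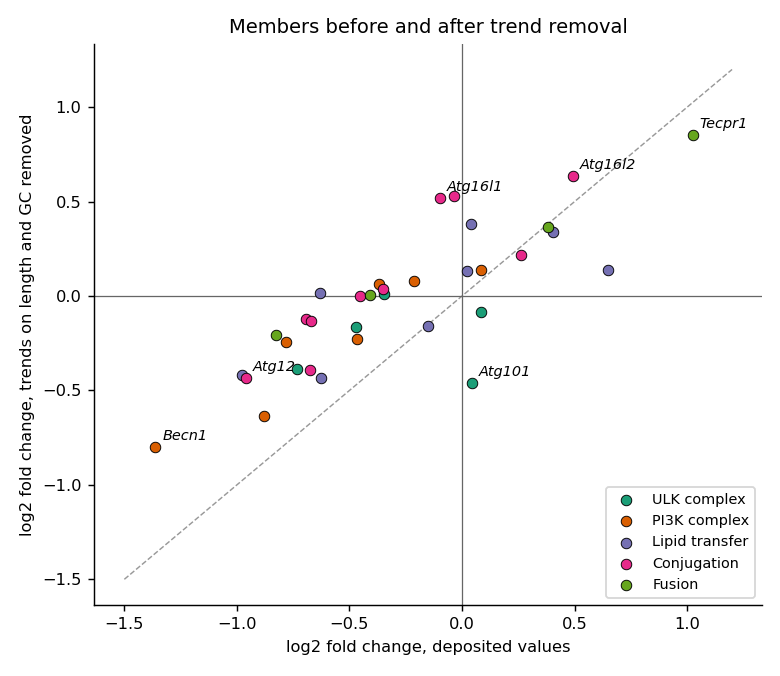
Log2 fold change (IGF1 over control) of the 34 genes after removal of each library's trends on transcript length and GC content (vertical axis) against the deposited values (horizontal axis), by step; the dashed line marks equal values, and named genes had an adjusted p under 0.05 after removal. Most genes below 0 lie above the line, and Becn1 and Tecpr1 remain the lowest and the highest, at -0.80 and 0.85.

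Paralogs of the same role were set beside each other in 5 pairs, which were chosen with their values known, so their ratios are given as a description with no test. The FPKM ratio within a library does not depend on the scale of the library. The ratio of Ulk1 to Ulk2 was 0.877, 1.81 and 0.853 in control and 2.13, 2.05 and 2.31 in IGF1, which is 1.95-fold higher. For the PI3P-binding proteins, the ratio of Wdr45 to Wdr45b was 0.296, 0.668 and 0.256 in control and 1.06, 0.969 and 1.03 in IGF1 (2.76-fold). The genes of this pair were thus at about equal levels in IGF1, while Wdr45b was above Wdr45 in every control. The ratio of Wipi1 to Wipi2 was 0.136, 0.167 and 0.125 in control and 0.245, 0.243 and 0.207 in IGF1 (1.64-fold). For the lipid transfer proteins, the ratio of Atg2a to Atg2b was 1.21, 1.39 and 1.17 in control and 2.50, 2.42 and 2.52 in IGF1 (1.98-fold). The ratio of Atg16l2 to Atg16l1 was 0.326, 0.414 and 0.332 in control and 0.598, 0.532 and 0.638 in IGF1 (1.65-fold). The share of other gene pairs whose ratios do not overlap between the groups was not computed.

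GC content of the longest transcript moved with 4 of these 5 ratios. The gene that gained was the one of higher GC content in Ulk1 (58.0% against 47.0% in Ulk2), Wdr45 (53.3% against 44.6%), Atg2a (60.0% against 50.3%) and Atg16l2 (49.8% against 45.3%). With the transcript closest in length to that implied by the FPKM steps, Atg16l2 was at 49.8% and Atg16l1 at 51.9%, which reverses the order in that pair. With the trends on length and GC content removed, the difference in log2 fold change between the paralogs went from 0.82 to 0.30 for Ulk1 and Ulk2, from 1.38 to 0.75 for Wdr45 and Wdr45b, from 0.80 to 0.29 for Atg2a and Atg2b and from 0.59 to 0.12 for Atg16l2 and Atg16l1. Wipi1 and Wipi2 had nearly equal GC content (51.7% and 52.2%), and their difference was 0.67 before and 0.82 after.

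**Figure D5:**
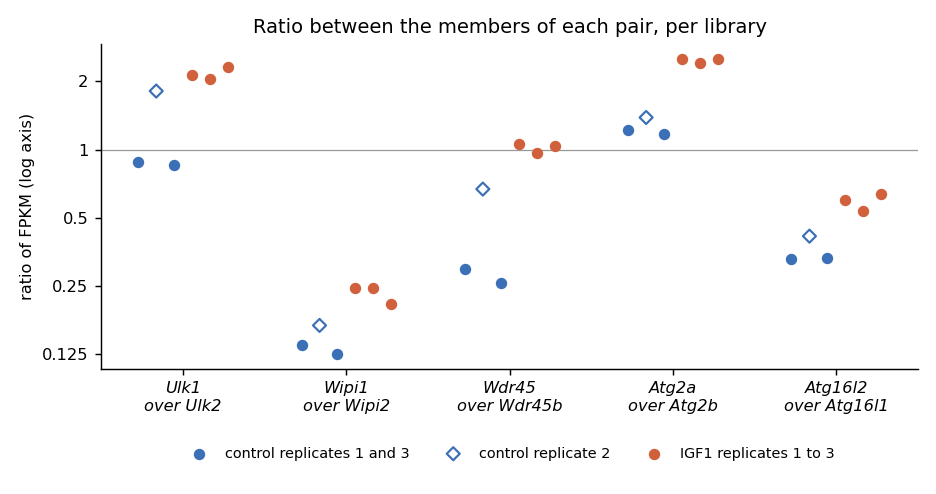
Ratio of FPKM (log axis) between the paralogs of each pair in each library, with filled blue circles for control replicates 1 and 3, open diamonds for control replicate 2 and orange circles for IGF1. In each pair the 3 IGF1 libraries lie above the 3 controls, with control replicate 2 the highest control.

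The scale of the libraries also bears on direction. FPKM summed over all genes to 466619, 635111 and 466135 in control replicates 1, 2 and 3 and to 680285, 677826 and 678752 in IGF1 replicates 1, 2 and 3. Scaling to equal sums, which would move the IGF1 values down against those of control replicates 1 and 3, was not run. Scaling to the 75th percentile moved the median over all genes from -0.18 to 0.040, and median ratio scaling and quantile normalization moved it to 0.011 and -0.021. The called genes then numbered 300 higher and 261 lower with the 75th percentile, 321 and 245 with the median ratio, and 304 and 319 with quantile normalization, beside 207 and 484. Among the members 19 or 20 were then below 0, and the median was -0.14 with the 75th percentile. Uvrag, Atg2b, Atg4a and Atg16l1 changed sign under at least 1 of these scalings, and each of them had an adjusted p over 0.2 as deposited. Vmp1 no longer passed the adjusted p under any of the 3 scalings, at -0.38 to -0.42 (limma adjusted p from 0.0515 to 0.0545).

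The other genes of the pathway were read from lists by role. In the list of fusion machinery 2 of 11 genes were called lower and 0 higher, beside 4.63% and 1.98% of all genes tested. Rab7, the small GTPase of late endosomes and lysosomes, was at 155, 89.3 and 153 FPKM in control and 61.4, 62.5 and 62.4 FPKM in IGF1, a fall of 1.04 on the log2 scale (SE 0.23, adjusted p = 0.0412). Stx7, a syntaxin of late endosomes, was at 42.9, 23.1 and 42.8 FPKM in control and 14.8, 15.0 and 16.5 FPKM in IGF1, a fall of 1.13 on the log2 scale (SE 0.25, adjusted p = 0.0415). For both, control replicate 2 stood between IGF1 and the other controls, and the values were -1.30 and -1.42 without it and -0.69 and -0.45 with the trends removed. Without control replicate 2, 5 genes of this list were called lower and 1 higher, beside 20.6% and 12.3% of all genes tested. The higher 1 was Vamp8, the most abundant gene of the list, at 531, 1157 and 541 FPKM in control and 1353, 1343 and 1312 FPKM in IGF1. Its log2 fold change was 0.95 (adjusted p = 0.0735), or 1.32 without control replicate 2 and 1.17 with the trends removed. By the adjusted p alone 4 genes were lower and 0 higher, beside 14.1% and 6.26% of all genes tested. They were Rab7, Stx7, Vps11 (-0.82) and Vps39 (-0.95). In the 13 upstream kinases and regulators tested, the 8 regulators of the PI3K complex, the 5 transcription factors of autophagy genes and the 7 genes of membrane trafficking, limma called 0, and without control replicate 2 it called 3, 2, 1 and 3 lower and 0 higher. By the adjusted p alone 1 gene was lower in each of the kinases (Rheb, the GTPase that activates mTORC1, at -0.52), the PI3K regulators (Bcl2l1, which binds Beclin 1, at -0.66) and the trafficking genes (Rab1a, at -0.998). With the trends removed these were at 0.084, -0.56 and -0.32, a change of sign in Rheb.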

How the data were processed

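RNA-seq libraries of sorted mouse BM HSCs (3 control, 3 IGF1) were used, grouped by their treatment labels. The values the authors deposited, 1 for each symbol in each library, were taken as FPKM, since the values are not whole, and those of a gene rise in whole steps that shrink with gene length. The study's methods name fastp and RSEM, while the submitters' processing notes name fastp, HISAT2, StringTie and GRCm38 (mm10), and the step from reads to the deposited FPKM is otherwise not given in the sources used here. Reads recovered from the steps came out whole (tolerance 0.005 reads) for 15635 of 15640 genes (99.97%), against 1.33% of 2104 genes with values jittered by 3%. The scale of the depth is approximate.

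Genes that reached 1 FPKM in 3 or more libraries (10447 genes, leaving out 4 rows that share a name) were fitted with limma 3.58.1 (R 4.3.3; lmFit, then eBayes with a trend) on log2(FPKM + 1), without a replicate block. The exact permutation tests were 2-sided. The script was tested on simulated data. Transcript length and GC content came from GENCODE M21 (99.1% of the genes tested), and trends on those of the longest transcript were removed by loess (span 0.3). A list of the pathway is not reported here. The members, their steps and all lists were chosen with earlier results of these data known. Values in every library are given for members that were called, for members whose groups did not overlap at a log2 fold change beyond 0.5, and for the highest and lowest member of each step. The alternatives were 3 scalings, 2 pseudocounts, 2 filters, no variance trend, a replicate block, library weights (arrayWeights), leaving out each library, voom on the recovered reads, the adjusted p alone and the removal of trends, which was also run without control replicate 2, a choice made after seeing the data.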

Additional observations from a re-analysis of the deposited data

How the results depend on the processing

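The counts of called genes turned on control replicate 2, whose label could not be checked. Leaving out 1 library at a time gave 0 to 6 members called lower, 0 to 1 called higher, 0 to 2157 genes of all called lower and 0 to 1281 called higher. The highest of these counts came without control replicate 2. Without any other library limma called 0 genes, and 450 to 795 lower and 232 to 386 higher genes were past the fold threshold at an unadjusted p under 0.05, among them 1 or 2 members. Library weights gave 6 members and 2159 genes called lower and 1276 genes called higher, with a median of -0.55 over the members. A replicate block gave 0 members lower, 0 members higher, 0 genes lower and 0 genes higher (1100 lower and 680 higher past the fold threshold at an unadjusted p under 0.05). The replicate numbers share only a name, since the deviations of same-numbered libraries correlated at -0.06, -0.05 and 0.01.

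The adjusted p alone gave 7 members lower and 4 higher, and 1476 and 654 genes. Voom gave 4 members lower and 383 genes higher, and a pseudocount of 0.1 gave 4 members lower. A pseudocount of 5 gave 0 members higher, 157 genes lower and 66 higher, since it damps low genes. No filter gave 0 members lower, 265 genes lower and 109 higher. With a minimum of 5 FPKM the medians were -0.15 (ULK complex), -0.78 (PI3K complex), -0.63 (lipid transfer) and 1.02 (fusion), because fewer members were tested.

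Scaling to the 75th percentile gave 261 genes lower, medians of -0.13 (ULK complex), 0.14 (lipid transfer), -0.17 (conjugation), 0.16 (fusion) and -0.14 (all members), and Uvrag at 0.029, Atg2b at 0.036, Atg4a at 0.20 and Atg16l1 at 0.13. Median ratio scaling gave 245 genes lower and 321 higher, medians of -0.16, 0.11, -0.20, 0.14 and -0.17 in the same order, Atg2b at 0.012, Atg4a at 0.17 and Atg16l1 at 0.10. Quantile normalization gave 319 genes lower, medians of -0.11 (ULK complex), 0.058 (lipid transfer), -0.15 (conjugation) and -0.12 (all members), Uvrag at 0.12, Atg4a at 0.28 and Atg16l1 at 0.21.

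Removal of the trends on length and GC content gave 0 members lower, 0 higher and 118 genes lower, with medians of -0.17 (ULK complex), 0.075 (lipid transfer), 0.019 (conjugation), 0.19 (fusion) and 0.0037 (all members). The genes that changed sign were Ulk1 (-0.086), Rb1cc1 (0.0085), Atg101 (-0.46), Atg14 (0.061), Uvrag (0.080), Vmp1 (0.015), Atg4a (0.53), Atg4b (0.00025), Atg10 (0.037), Atg16l1 (0.52) and Stx17 (0.0072). With control replicate 2 also left out, 0 members and 793 genes were lower, and 1 member and 1304 genes higher. The medians were then 0.083 (lipid transfer), -0.036 (conjugation), 0.20 (fusion) and -0.051 (all members), and Ulk1 (-0.020), Atg101 (-0.46), Uvrag (0.054), Vmp1 (0.062), Atg4a (0.74), Atg16l1 (0.59) and Snap29 (0.067) changed sign.

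Library weights turned Ambra1 to -0.067, Wipi1 to -0.062 and Atg4a to 0.035. Leaving out 1 library gave ranges that crossed 0 for Ambra1 (-0.064 to 0.16), Wipi1 (-0.059 to 0.11), Atg4a (-0.11 to 0.046), Atg101 (-0.074 to 0.24) and Atg9a (-0.016 to 0.091). Becn1, Atg12, Atg3, Atg5, Wdr45b, Atg2a and Tecpr1 kept their direction in all 19 alternatives, but some values were small. Atg2a was at 0.14 with the trends removed. With control replicate 2 also left out, Atg2a was at 0.10 and Atg3 at -0.069. The cause of these changes was not tested. Depth limits the low members most, the fewest reads behind a member in a library being 59.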
